A study of Mus musculus with 6 samples.

Results

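The genes that build caveolae were followed through C2C12 differentiation: the caveolins Cav1, Cav2 and Cav3, the cavins Cavin1, Cavin2, Cavin3 and Cavin4, and the ATPase gene Ehd2. These 8 genes, chosen by name, were all detected among the 25308 genes with a count in the series, and all 8 passed the filter on low counts. RNA-seq had been performed on 6 libraries of C2C12, a clonal mouse myoblast line that needs no transgene or drug to form muscle and is switched to differentiation by a medium low in serum. The groups were myoblasts harvested near confluence before differentiation (day 0) and, from differentiated dishes (day 7), myotubes and reserve cells, with 2 libraries each, which the submitters named biological replicates. The labels name no genetic change or compound for any group. Reserve cells are the mononucleated cells of the same dishes that stay unfused, and they were parted from the myotubes by mild trypsinization, so neither day 7 population was sorted on a marker. The series text gave 7 days in low serum, while the culture methods of the study gave a shorter time.

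Caveolae are small flask-shaped pits of the plasma membrane that buffer membrane tension and gather signaling receptors. Caveolins insert into the inner leaflet of the membrane as a hairpin, cavins form a coat on the cytosolic face, and EHD2 sits at the neck, where it holds the pit at the cell surface. CAV1 with CAV2 serves most cell types, whereas CAV3 and cavin 4 are the isoforms of striated muscle, where caveolae also take part in forming transverse tubules. Mutations of human CAV3 and CAVIN1 cause muscle disease.

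The libraries held 15658875 to 20055078 estimated counts. Replicates correlated across genes with r of 0.976 to 0.981, where genes are not independent replicates. Transcripts of the mitochondrial genome took 1.89% to 1.90% of counts in myoblasts, 5.30% to 5.37% in myotubes and 2.36% in reserve cells. The unit CPM is an estimated count per library size, which the trimmed mean of M values (TMM) adjusted, errors are SD over n = 2 libraries, and adjusted p are Benjamini-Hochberg values over 15467 genes from the quasi-likelihood test of edgeR, read against 0.05. In RNA from whole populations, fewer cells of a type and less RNA per cell cannot be told apart, and p-values measure only the spread between these libraries. The SE and 95% interval of a log2 fold change were derived from that change and the F statistic of its test, not estimated directly.

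The muscle isoforms Cav3 and Cavin4 and the other 6 genes moved in opposite directions in myotubes. In myotubes compared with myoblasts, Cav3 and Cavin4 rose, and Cav1, Cav2, Cavin1, Cavin2, Cavin3 and Ehd2 fell. All 8 genes passed the test, against a background of 65.5% of all genes tested in this comparison. The 2 that rose and the 6 that fell stand beside 32.7% and 32.9% of all genes. By at least 2-fold, 6 of the 8 changed, against 35.2% of all genes, with 2 higher (background 16.6%) and 4 lower (background 18.5%).

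In reserve cells compared with myoblasts, Cav3, Cavin4 and Cav1 were higher, Cav2, Cavin1, Cavin3 and Ehd2 were lower, and Cavin2 did not pass. That made 7 of 8 genes, against 47.1% of all genes, with 3 higher (background 24.7%) and 4 lower (background 22.4%). Only Cav3 and Cavin4 differed by at least 2-fold, against 16.9% of all genes, and these 2 were higher (background 10.5%) while 0 were lower by that much (background 6.35%). In myotubes compared with reserve cells, 7 of 8 passed, against 56.5% of all genes. Cav3 and Cavin4 were higher in myotubes (background 27.6%), 5 genes were lower (background 28.9%) and Cavin1 did not pass. Here 5 of 8 differed by at least 2-fold, against 23.4%, with 2 higher (background 9.41%) and 3 lower (background 14.0%). The 3 comparisons share libraries and are not independent of each other.

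**Figure D1:**
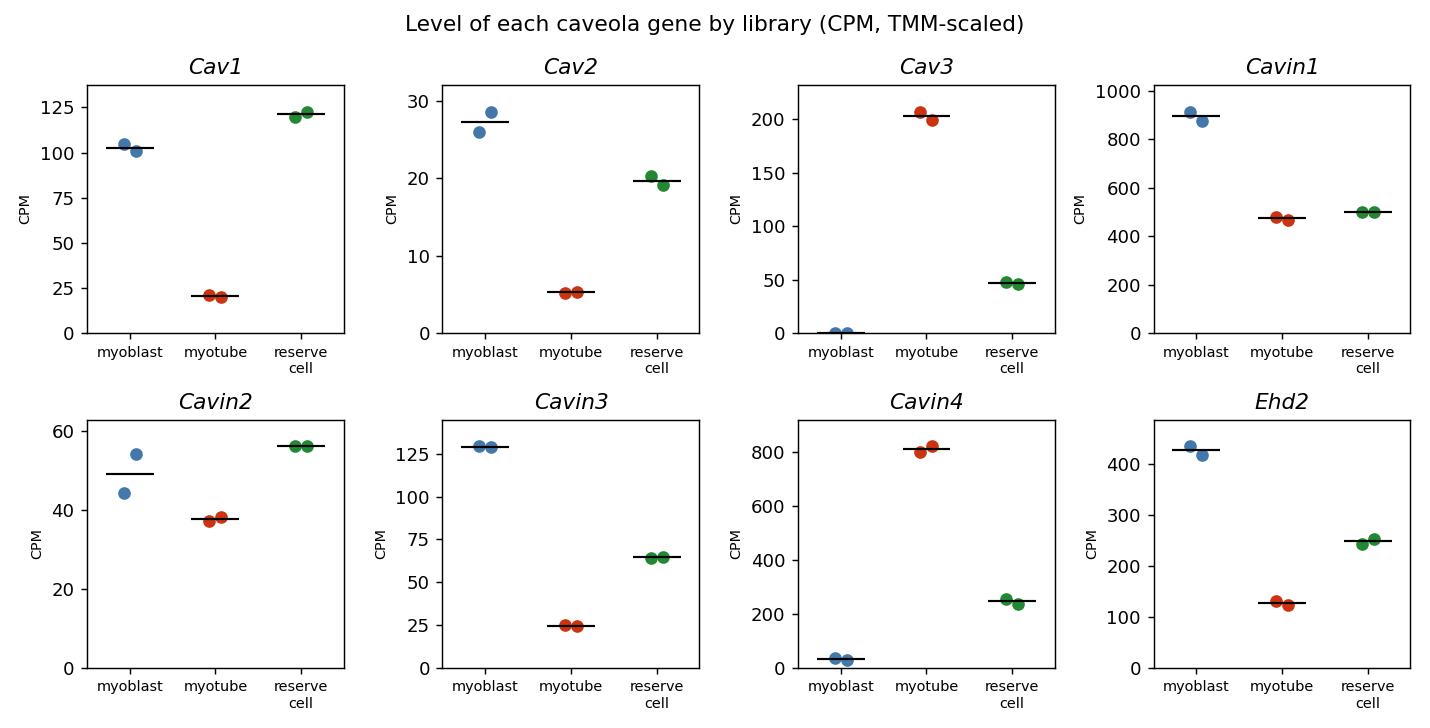
Level of each of the 8 genes in each library. Each dot is 1 library in TMM-scaled CPM on a linear axis and each line the mean of 2 libraries, for myoblasts, myotubes and reserve cells. Cav3 and Cavin4 are lowest in myoblasts and highest in myotubes, with reserve cells between them, while Cav1 and Cav2 are lowest in myotubes.

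The muscle caveolin Cav3 (ENSMUSG00000062694.7, mm10 chr6:112459505-112472872, plus strand) was close to absent from myoblasts. Myoblast libraries had only 4 and 2 estimated counts of it, against 2916 and 3427 for myotubes and 955 and 895 for reserve cells. In CPM these were 0.233 and 0.0922, 207 and 199, and 48.2 and 46.4. Myotubes were highest, reserve cells intermediate and myoblasts lowest, with no overlap. The log2 fold change was 10.30 between myotubes and myoblasts (SE 0.163, adjusted p = 7.5e-15 by edgeR) and 8.19 between reserve cells and myoblasts (SE 0.172, adjusted p = 3.4e-13 by edgeR). Since only 6 counts stand behind the myoblast level, the ratio itself was imprecise. It was 1313 for myotubes with a 95% interval of 603 to 3580, and 306 for reserve cells with an interval of 140 to 835. These intervals cover counting error only. They are wider than the SE imply, so each SE against myoblasts understates the error of Cav3. Without myoblast replicate 1 the log2 fold changes were 10.99 and 8.89, and without myoblast replicate 2 they were 9.71 and 7.62. Between the day 7 populations, where counts were ample, Cav3 was higher in myotubes by 2.10 on the log2 scale (SE 0.0853, adjusted p = 2.2e-10 by edgeR).

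Cavin4 (ENSMUSG00000028348.7, chr4:48663514-48673502, plus strand), also called MURC, encodes the muscle cavin, which binds the other cavins in the coat of muscle caveolae. It stood at 37.2 and 29.0 CPM in myoblasts, 799 and 820.1 CPM in myotubes and 256 and 237 CPM in reserve cells. Unlike Cav3, it was already well detected in myoblasts, with 637 and 629 counts, and the groups kept the same order without overlap. It rose by 4.62 on the log2 scale in myotubes (SE 0.128, 95% interval 4.29 to 4.94, adjusted p = 9.2e-07 by edgeR). In reserve cells the rise was 2.90 (SE 0.121, adjusted p = 1.3e-05 by edgeR). Myotubes exceeded reserve cells by 1.72 (SE 0.110, adjusted p = 6.4e-05 by edgeR).

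The promoter windows of these genes, the pair that rose, are shown because the E-box is the element that myogenic transcription factors such as MyoD and myogenin bind. Each window holds the 250 bases before the RefSeq start (GRCm38.p6), which span chr6:112459255-112459504 for Cav3 and chr4:48663264-48663513 for Cavin4, both on the plus strand and printed 5′ to 3′. Capitals mark the E-box CAGCTG.

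Cav3: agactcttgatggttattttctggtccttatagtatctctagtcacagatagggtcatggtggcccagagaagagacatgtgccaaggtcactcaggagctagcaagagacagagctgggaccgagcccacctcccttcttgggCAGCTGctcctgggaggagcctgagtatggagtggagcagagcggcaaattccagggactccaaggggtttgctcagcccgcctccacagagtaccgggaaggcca

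Cavin4: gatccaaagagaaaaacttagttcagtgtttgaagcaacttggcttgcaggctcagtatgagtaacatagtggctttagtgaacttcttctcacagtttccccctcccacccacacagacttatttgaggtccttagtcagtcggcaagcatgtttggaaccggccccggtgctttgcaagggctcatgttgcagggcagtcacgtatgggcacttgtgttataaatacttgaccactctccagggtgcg

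The Cav3 window held CAGCTG at base -106 from the start and a looser match to CANNTG at -174. The Cavin4 window held no CAGCTG and 1 match to CANNTG, at -39. Both patterns read the same on the opposite strand, and each CAGCTG is also a CANNTG. Among 32851 windows of this length, CAGCTG occurred in 13.0% and CANNTG in 66.2%, so the looser pattern is common. A window was found for 7 of the 8 genes, and the only other CAGCTG among them, at -204, was in that of Ehd2, which fell. Cav1 and Cav2 each had windows with CANNTG alone, whereas the windows of Cavin1 and Cavin2 had no match. A match is a stretch of letters, and no binding was measured here.

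Cav1 (ENSMUSG00000007655.16, chr6:17306335-17341452, plus strand) encodes the main caveolin of cells outside striated muscle. It was measured at 104.7 and 101 CPM in myoblasts, 20.98 and 19.9 CPM in myotubes, and 119.7 and 123 CPM in reserve cells. Both myotube libraries lay far below the rest, and both reserve cell libraries lay a little above the myoblasts. Cav1 fell by 2.33 on the log2 scale from myoblasts to myotubes (SE 0.0783, adjusted p = 1.3e-11 by edgeR). It was lower by a similar amount in myotubes than in reserve cells, at -2.57 on the log2 scale (SE 0.0786, adjusted p = 1.5e-11 by edgeR). The excess of reserve cells over myoblasts was small, at 0.24 (SE 0.0711, adjusted p = 0.0141 by edgeR). This last call was lost without myoblast replicate 2 (0.21, adjusted p = 0.102 by edgeR), without reserve cell replicate 2 (0.22, adjusted p = 0.0766) and when library totals replaced TMM (0.17, adjusted p = 0.0708).

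Cav2 (ENSMUSG00000000058.6, chr6:17281185-17289115, plus strand), whose product depends on CAV1 to reach the cell surface, lies 17219 bases upstream of Cav1 on the same strand. Its level was 26.0 and 28.6 CPM in myoblasts, 5.19 and 5.29 CPM in myotubes, and 20.2 and 19.1 CPM in reserve cells. The reserve cell libraries stayed below the myoblasts and well above the myotubes, so the order differed from that of its neighbor. Cav2 fell by 2.38 in myotubes (SE 0.152, adjusted p = 1.0e-08 by edgeR). In reserve cells it fell by 0.47 (SE 0.136, adjusted p = 0.0116 by edgeR), which was lost without myoblast replicate 2 (-0.40, adjusted p = 0.105) and without reserve cell replicate 2 (-0.43, adjusted p = 0.0834). Myotubes differed from reserve cells by -1.91 (SE 0.152, adjusted p = 1.8e-07 by edgeR). The ratio of Cav1 to Cav2 in TPM, a level that also allows for transcript length, was 4.67 and 4.02 in myoblasts, 4.42 and 4.13 in myotubes, and 6.87 and 7.10 in reserve cells. Myoblast and myotube ratios thus overlapped, and the reserve cell ratios lay above both. With 2 libraries against 2 no exact test of these ratios can pass 0.05, so they are given as a description.

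Cav1 alone among the 8 genes had more than 1 transcript with a sizeable part of its counts. Cav1-201, whose start lies furthest upstream (17306335), took 16.2% and 31.7% of Cav1 counts in myoblasts, 51.2% and 40.6% in myotubes, and 60.1% and 37.7% in reserve cells. Cav1-202 (from 17307640) took 75.04% and 61.8%, 45.1% and 53.8%, and 31.4% and 57.3%. Replicates of reserve cells differed by as much as groups did, so the split between these start sites could not be compared. Cav2-201, Cavin1-201 and Ehd2-201 each held at least 97.8% of their gene's counts, and Cav3, Cavin2, Cavin3 and Cavin4 had a single annotated transcript.

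Cavin1 (ENSMUSG00000004044.9, chr11:100956733-100970887, minus strand), also called PTRF, encodes the coat protein without which caveolae do not form. It was the most abundant of the 8 genes in myoblasts, with 915 and 878 CPM. Myotubes had 479 and 468 CPM, and reserve cells had 501 and 501 CPM. Both day 7 populations lay below the myoblasts and close to each other. Cavin1 fell by 0.92 in myotubes (SE 0.0401, adjusted p = 2.0e-10 by edgeR) and by 0.84 in reserve cells (SE 0.0400, adjusted p = 1.4e-09 by edgeR). The difference between myotubes and reserve cells was -0.08 (95% interval -0.17 to 0.01, adjusted p = 0.105 by edgeR), although the libraries did not overlap. With library totals in place of TMM it was -0.29 and passed (adjusted p = 4.3e-05 by edgeR), a scaling under which the median of all genes also moved, to -0.21.

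Cavin2 (ENSMUSG00000045954.7, chr1:51289126-51302960, plus strand), also called SDPR, encodes a cavin that binds phosphatidylserine and bends membranes. Its level was 44.2 and 54.1 CPM in myoblasts, 37.2 and 38.3 CPM in myotubes, and 56.1 and 56.1 CPM in reserve cells. The myoblast libraries spread over most of the gap between the day 7 populations. It was the least changed gene of the 8 in myotubes, with a fall of 0.38 (SE 0.0979, adjusted p = 0.0037 by edgeR) that did not pass without myoblast replicate 2 (-0.24, adjusted p = 0.0703). Between reserve cells and myoblasts the value was 0.19 (95% interval -0.02 to 0.40, adjusted p = 0.124 by edgeR), and without myoblast replicate 2 it was 0.34 and passed (adjusted p = 0.0220), while without myoblast replicate 1 it was 0.05. Compared with reserve cells, Cavin2 in myotubes was lower, at -0.57 on the log2 scale (SE 0.0976, adjusted p = 0.000223 by edgeR).

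Cavin3 (ENSMUSG00000037060.3, chr7:105480083-105482300, minus strand), also called PRKCDBP for its binding to protein kinase C delta, fell in myotubes by about as much as Cav1 and Cav2. It was at 129 and 129 CPM in myoblasts, 24.96 and 24.1 CPM in myotubes, and 64.4 and 65.0 CPM in reserve cells. Replicates lay close together, with the reserve cells between the other groups. Cavin3 fell by 2.40 in myotubes (SE 0.0774, adjusted p = 8.9e-12 by edgeR) and by 1.00 in reserve cells (SE 0.0721, adjusted p = 9.7e-08 by edgeR), marginally short of 2-fold. Compared with reserve cells, myotubes stood at -1.40 on the log2 scale (SE 0.0765, adjusted p = 4.1e-09 by edgeR). The ratio of Cavin1 to Cavin3 in TPM was 3.37 and 3.24 in myoblasts, 9.19 and 9.29 in myotubes, and 3.71 and 3.68 in reserve cells. Cavin3 thus dropped out of proportion to Cavin1 in myotubes, while in reserve cells the ratio moved little. A transcript on the opposite strand, Gm45667, overlaps Cavin3 over 374 bases and had 32 to 166 counts, against 351 to 2801 for Cavin3. The strand setting of the counting is not given in the sources used here, so reads of the shared bases cannot be told apart.

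Ehd2 (ENSMUSG00000074364.6, chr7:15946958-15967567, minus strand) had the same order of groups as Cavin3. It was measured at 434 and 418 CPM in myoblasts, 130.2 and 124 CPM in myotubes, and 242 and 253 CPM in reserve cells. Reserve cells were again intermediate, without overlap. Ehd2 fell by 1.75 in myotubes (SE 0.0510, adjusted p = 3.2e-12 by edgeR) and by 0.78 in reserve cells (SE 0.0493, adjusted p = 2.4e-08 by edgeR). Myotubes differed from reserve cells by -0.96 (SE 0.0503, adjusted p = 2.6e-09 by edgeR). None of the 8 genes had overlapping CPM between groups in any comparison, which with 2 libraries a group also held for 82.9%, 78.3% and 74.8% of all genes tested in the comparisons of myotubes with myoblasts, myotubes with reserve cells, and reserve cells with myoblasts.

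**Figure D2:**
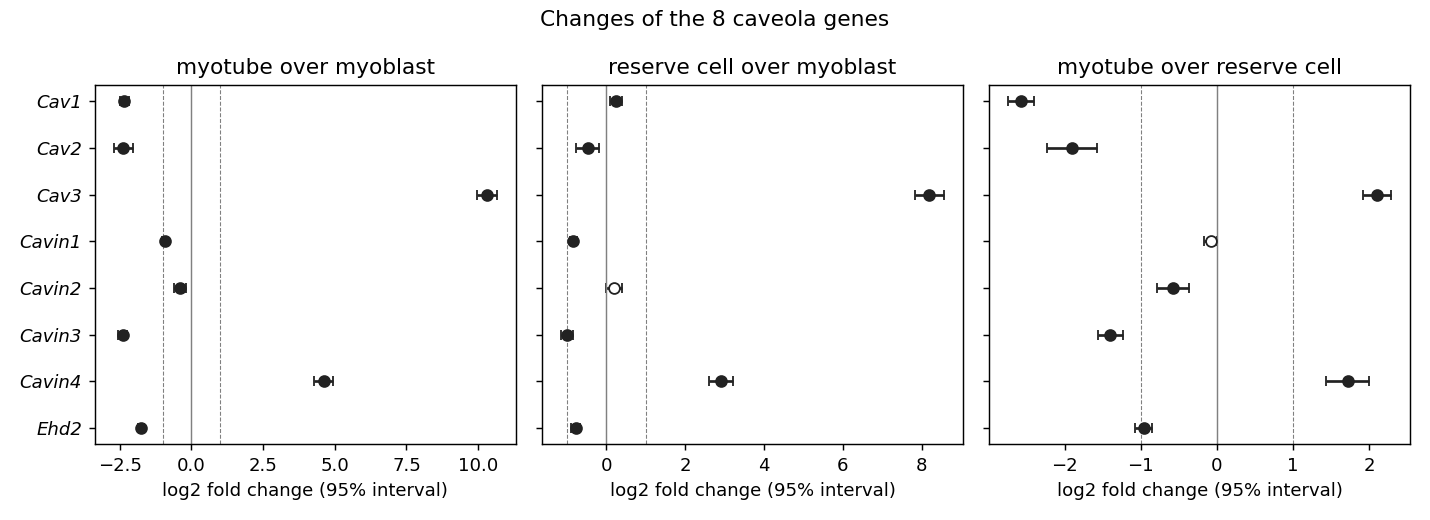
Change of each gene in the 3 comparisons. Points are log2 fold changes from edgeR with bars for the 95% interval, filled where the adjusted p was under 0.05, and dashed lines mark a 2-fold change. Cav3 and Cavin4 lie to the right in all 3 comparisons, Cavin2 in reserve cells against myoblasts (0.19) and Cavin1 in myotubes against reserve cells (-0.08) are open, and the other values lie on the lower side except Cav1 in reserve cells (0.24).

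Per transcript length, the order of the genes changed with differentiation. In myoblasts the TPM ran from Cavin1 (636 ± 17.2) through Ehd2 (206 ± 4.89), Cavin3 (192 ± 0.0757) and Cav1 (107 ± 4.20) to Cavin4 and Cavin2, which did not differ beyond their spread (39.8 ± 6.87 and 39.8 ± 5.76), Cav2 (24.8 ± 1.65) and Cav3 (0.348 ± 0.213). In myotubes Cavin4 led (731 ± 19.1), followed by Cav3 (326 ± 6.59) and Cavin1 (253 ± 2.20), and then Ehd2 (47.5 ± 2.36), Cavin3 (27.4 ± 0.437), Cavin2 (22.9 ± 0.640), Cav1 (15.7 ± 0.266) and Cav2 (3.67 ± 0.116). The muscle isoforms had thus moved from the lower part of the order to its top. In reserve cells Cavin1 (349 ± 4.26) and Cavin4 (291 ± 11.9) led, and Cav1 (125 ± 2.62), Ehd2 (118 ± 5.50), Cav3 (99.2 ± 1.53) and Cavin3 (94.5 ± 1.77) followed within a narrow band, above Cavin2 (44.6 ± 0.498) and Cav2 (17.9 ± 0.800). In TPM reserve cells were therefore the only group of the 3 in which Cav1 and Cav3 stood at like levels. The ratio of Cav1 to Cav3 was 1.27 and 1.26, against 0.0480 and 0.0482 in myotubes. The likeness depended on the scale, as mean CPM in reserve cells was 121 for Cav1 and 47.3 for Cav3.

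The make-up of each family shifted accordingly. Of the summed caveolin TPM, Cav3 held 0.370% and 0.151% in myoblasts, 94.4% and 94.3% in myotubes, and 40.8% and 41.1% in reserve cells. Cav1 held 82.0% and 79.95%, 4.53% and 4.55%, and 51.7% and 51.7%. Of the summed cavin TPM, Cavin4 held 4.85% and 3.91% in myoblasts, 70.2% and 71.1% in myotubes, and 38.3% and 36.5% in reserve cells. Cavin1 held 70.4% and 69.7%, 24.9% and 24.0%, and 44.2% and 45.4%. Replicates agreed closely, and the groups were far apart in each of these shares. The summed TMM-scaled CPM of the 8 genes was 1691 and 1638 in myoblasts, 1704 and 1699 in myotubes, and 1307 and 1301 in reserve cells. On this scale the sum stayed close in myotubes while each gene moved, and was lower in reserve cells. Its parts did not all stay level from myoblasts to myotubes, in CPM or in TPM. Mean TMM-scaled CPM of Ehd2 went from 426 to 127. Without TMM, mean summed CPM went from 141 to 205 for caveolins and from 1201 to 1202 for cavins. In TPM mean summed caveolins went from 133 to 345 and cavins from 908 to 1034, while Ehd2 went from 206 to 47.5. Reserve cells had 242 for caveolins, 780 for cavins and 118 for Ehd2. Summed cavins exceeded summed caveolins by 6.84 and 6.85 times in myoblasts, 2.92 and 3.07 times in myotubes and 3.19 and 3.25 times in reserve cells in TPM. In CPM the same ratios were 8.60 and 8.42, 5.74 and 6.02, and 4.66 and 4.57, so the order of myotubes and reserve cells depended on the scale.

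**Figure D3:**
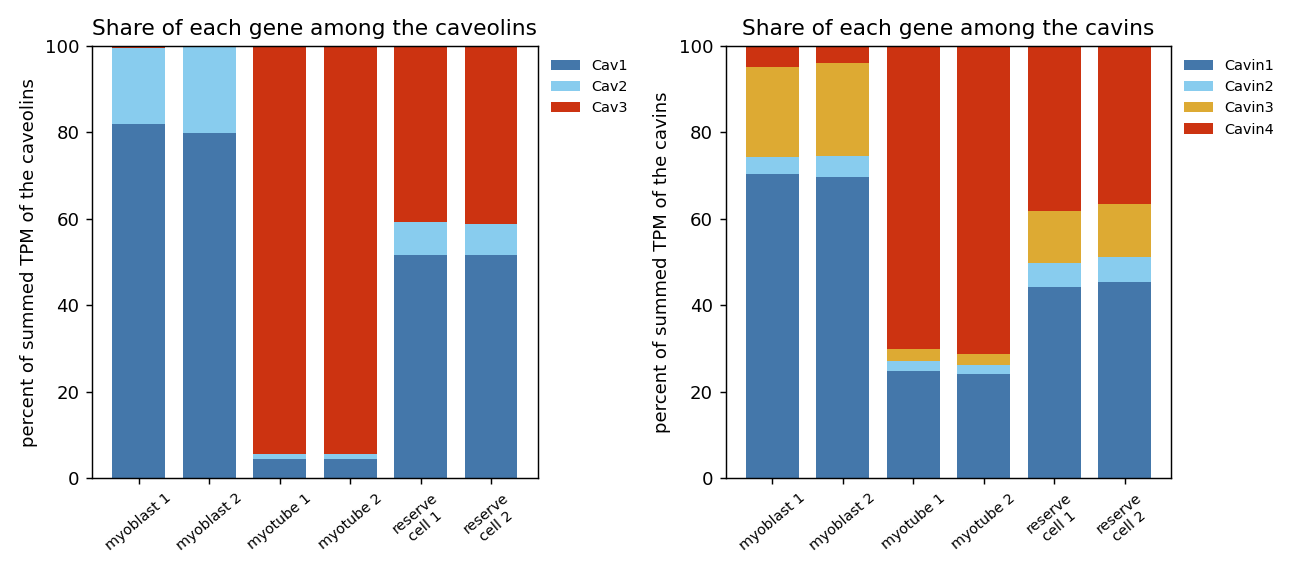
Make-up of the caveolin and cavin families in each library. Stacked bars give the percent of summed TPM held by each gene, with caveolins in one panel and cavins in the other. Cav3 takes 94.3% to 94.4% of caveolin TPM in myotubes and 40.8% to 41.1% in reserve cells, and Cavin4 takes 70.2% to 71.1% and 36.5% to 38.3% of cavin TPM.

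The intermediate Cav3 and Cavin4 of reserve cells came with other muscle transcripts. Reserve cells had 23.2% of the myotube CPM of Cav3 and 30.5% of that of Cavin4. Among 6 myotube markers the same percentage was 20.4% for Tnnt3, 20.6% for Ckm, 31.1% for Acta1, 32.3% for Myh3, 34.6% for Mymk and 44.9% for Myog. The 6 markers summed to 228 to 241 CPM in myoblasts, 20658 to 20661 CPM in myotubes and 6126 to 6228 CPM in reserve cells. Cav3 and Cavin4 therefore lay within the range of these markers. The part that differentiated cells among the reserve cells had in these levels was not tested.

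The opposite check was made on the 5 genes that were higher in reserve cells than in myotubes. Myotubes had 16.9% of the reserve cell level of Cav1, 26.7% of that of Cav2, 37.95% of that of Cavin3, 51.3% of that of Ehd2 and 67.2% of that of Cavin2. Of 5 reserve and satellite cell genes, Pax7 stood at 15.7%, Notch3 at 16.7%, Cd34 at 20.8% and Heyl at 24.4%, while Spry1 stood at 113%. A list of 5 fibroblast genes that myogenic cells also express summed to 2188 to 2191 CPM in myoblasts, 530 to 541 CPM in myotubes and 2767 to 2857 CPM in reserve cells. The CPM of Cav1 and Cavin2 had the same order of groups, though Cavin2 did not pass between reserve cells and myoblasts. The order of the fibroblast sum was carried mostly by Col3a1, at 2046 CPM in myoblasts, and by Col1a1. Pdgfra was lower in reserve cells than in myoblasts (-0.88, adjusted p = 0.000497 by edgeR). Dcn was higher in reserve cells than in myoblasts (2.86, adjusted p = 3.1e-10 by edgeR). It did not pass in myotubes against myoblasts (0.17, adjusted p = 0.233 by edgeR). Lum stood at only 0.303 and 0.518 CPM in reserve cells and at 0 in the other libraries. A list of 5 smooth muscle genes summed to 869 to 890 CPM, 1351 to 1408 CPM and 2713 to 2777 CPM, carried mostly by Acta2. Of the others, Tagln was higher in reserve cells, Smtn was highest in myotubes (0.59 against reserve cells, adjusted p = 5.5e-07 by edgeR), and Cnn1 and Myh11 stayed at or below 1.15 CPM. The part of such cells in the Cav1 level was not tested. Endothelial cells and adipocytes are rich in caveolae, but 6 endothelial genes summed to 0.646 to 2.35 CPM in the 6 libraries, and Adipoq, Cidec, Lep and Plin1, 4 of 6 adipocyte genes, had 0 counts in every library. The 6 adipocyte genes summed to 13.8 to 14.0 CPM in myoblasts, 2.91 to 6.61 CPM in myotubes and 3.63 to 3.83 CPM in reserve cells. Of 5 macrophage genes, which summed to 2.02 to 3.92 CPM, Ptprc and Adgre1 were at 0. Proliferation genes, 5 in all, summed to 1781 to 1783 CPM in myoblasts, 127 to 138 CPM in myotubes and 657 to 671 CPM in reserve cells. Cav2, Cavin3 and Ehd2 had the same order of groups. Cavin1 had it too, in CPM and in TPM, though its difference between myotubes and reserve cells did not pass. The part of proliferation genes in those levels was not tested.

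Genes whose pattern over the 6 libraries lay nearest to each gene were found among 9366 genes by the Euclidean distance between log2 CPM, each gene set to its own mean. For Cav3 they were Myl4 (0.418), Myh1 (0.433) and Myh2 (0.545), which encode a myosin light chain and myosin heavy chains. Nearest to Cavin4 were Klhl31 (0.252), Rbm38 (0.336) and Palm3 (0.349). Cav1 had Col4a1 (0.114), Fstl1 (0.126) and Kirrel (0.145) as neighbors, the foremost of which encodes a chain of basement membrane collagen. Cav2 lay nearest to Pmp22 (0.134), Cavin1 to Tlnrd1 (0.0764), Cavin2 to Ccnl1 (0.119), Cavin3 to Prkcd (0.117), the gene of protein kinase C delta, and Ehd2 to Gmds (0.0799). Within the 8 genes the closest pair was Cav2 and Cavin3 (0.606), ahead of Cavin3 and Ehd2 (0.660) and of Cav1 and Cav2 (0.819). Many of the genes searched lay nearer than the partner in each pair. There were 214 nearer to Cav2 than Cavin3 was, and 214 nearer to Cavin3 than Cav2 was. For Cavin3 and Ehd2 these counts were 269 and 587, and for Cav1 and Cav2 they were 139 and 427. Cav3 and Cavin4 were 5.54 apart, with the same direction in every comparison but a larger span for Cav3.

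Proteins that work with caveolae were read from further gene lists. Of 14 genes of the transverse tubule and of partners of caveolin 3, 13 rose in myotubes compared with myoblasts and 1 did not pass, with a median log2 fold change of 4.16 against 0.00 for all genes tested, of which 32.7% were called higher and 32.9% lower. They included Trim72 (9.01, SE 0.0686), whose product MG53 patches torn membranes, Cacna1s (7.92, SE 0.0759), the calcium channel subunit of the tubule, Pfkm (4.402, SE 0.0507), the muscle phosphofructokinase, and Bin1 (2.58, SE 0.0397), which shapes tubules. Dystrophin (Dmd) had 0 counts in both myoblast libraries and was at least 988-fold higher in myotubes and at least 228-fold higher in reserve cells, set against 3 counts over the group. Bves, a popeye-domain gene, was at -0.02 (adjusted p = 0.757 by edgeR), and with library totals at -0.30, which passed (adjusted p = 0.00032 by edgeR). In reserve cells compared with myoblasts 13 of the 14 were higher and Bves was lower (-0.53, SE 0.0562), with a median of 2.63 against 0.01 and beside 24.7% and 22.4% of all genes. In myotubes compared with reserve cells 11 were higher, 2 did not pass, and Nos1, the neuronal nitric oxide synthase of the sarcolemma, was lower (-2.48, SE 0.202), with a median of 1.72 against -0.01 and beside 27.6% and 28.9% of all genes.

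Of 10 genes of the caveola neck and of membrane budding, 7 rose, 2 fell and 1 did not pass in myotubes compared with myoblasts, with a median of 0.69 against 0.00 for all genes, of which 32.7% were called higher and 32.9% lower. The pacsins, which bend membranes and bind dynamin, rose together: Pacsin3 by 3.10 (SE 0.0579), Pacsin2 by 0.75 (SE 0.0417) and Pacsin1 from 0 and 5 counts to 543 and 799, a ratio of 333 with a counting interval of 143 to 1029. Among the relatives of Ehd2, Ehd3 fell as it did, at -1.498 on the log2 scale (SE 0.142), and Ehd4 rose by 1.59 (SE 0.0478). Ehd1 depended on the scale, at 0.15 with TMM (SE 0.0589, adjusted p = 0.0379 by edgeR) and -0.13 with library totals (adjusted p = 0.0692 by edgeR). Dnm1, the dynamin best known from neurons, fell by 1.08 (SE 0.164). In reserve cells compared with myoblasts 5 were higher, 4 lower and 1 did not pass (median 0.39 against 0.01), beside 24.7% and 22.4% of all genes. In myotubes compared with reserve cells 6 were higher, 2 lower and 2 did not pass (median 0.63 against -0.01), beside 27.6% and 28.9%.

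Of the 3 raft scaffold genes, Stom, a stomatin, rose by 1.33 in myotubes (SE 0.0446), and the flotillins Flot1 (0.15, adjusted p = 0.0871 by edgeR) and Flot2 (0.01, adjusted p = 0.949 by edgeR) did not pass, although with library totals Flot2 was at -0.27 and passed (adjusted p = 0.0018 by edgeR). The flotillins form a raft coat separate from caveolae. In reserve cells compared with myoblasts Stom was higher (0.74, SE 0.0442), Flot2 lower (-0.26, SE 0.0648) and Flot1 did not pass (0.04). In myotubes compared with reserve cells Stom (0.59, SE 0.0438) and Flot2 (0.27, SE 0.0650) were higher, the latter not passing with library totals (0.06, adjusted p = 0.445 by edgeR).

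Of 14 signaling genes whose products associate with caveolae, 4 rose, 8 fell and 2 did not pass in myotubes compared with myoblasts, with a median of -0.51 against 0.00 for all genes, of which 32.7% were called higher and 32.9% lower. Those that rose were the fatty acid receptor Cd36 (6.57, SE 0.152), the insulin-responsive glucose transporter Slc2a4 (3.16, SE 0.336), the kinase Fyn (1.39, SE 0.0584) and the receptor gene Tgfbr1 (0.53, SE 0.0836). Those that fell included Src (-1.98, SE 0.0942), a kinase that phosphorylates CAV1, and Abl1 (-1.60, SE 0.0659). In reserve cells compared with myoblasts 6 were higher, 3 lower and 5 did not pass (median 0.21 against 0.01, beside 24.7% and 22.4% of all genes), with the receptor gene Pdgfrb (1.45, SE 0.0625) among the higher ones and Src (-1.33, SE 0.0901) among the lower ones. In myotubes compared with reserve cells 3 were higher, 7 lower and 4 did not pass (median -0.33 against -0.01, beside 27.6% and 28.9% of all genes). The higher ones were Cd36 (2.66, SE 0.108), Slc2a4 (1.81, SE 0.308) and Fyn (1.52, SE 0.0586). Pdgfrb (-2.61, SE 0.0658) and Irs1 (-1.65, SE 0.0674) were among the lower ones.

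**Figure D4:**
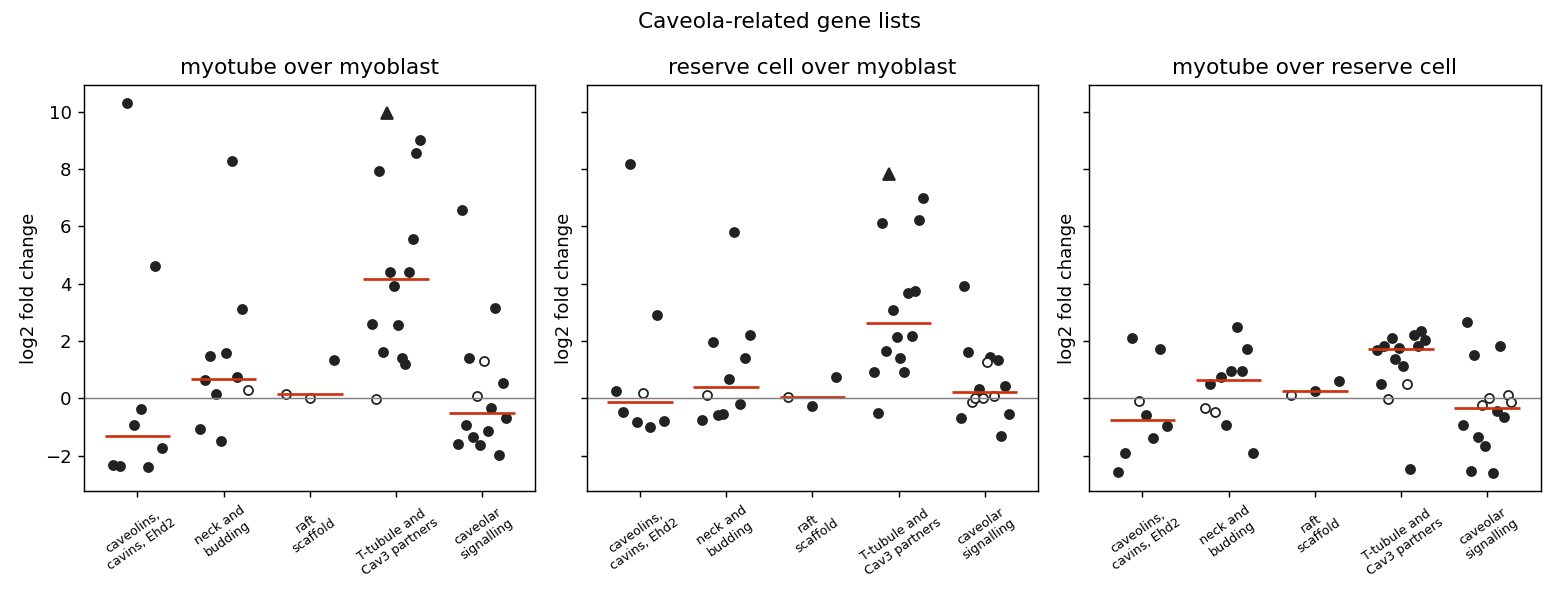
Change of the 8 genes and of the 4 further lists in each comparison. Each point is a gene at its log2 fold change, filled where the adjusted p from edgeR was under 0.05, red lines are medians of a list, and the triangle is Dmd at its lower bound. The transverse tubule list lies to the positive side in all 3 comparisons (medians 4.16, 2.63 and 1.72), while the 8 caveola genes have medians of -1.33, -0.14 and -0.77 that hide opposite changes.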

How the data were processed

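Poly(A) RNA of 6 C2C12 libraries had been sequenced as paired ends. The authors aligned reads to mm10 with HISAT2, used SAMtools and StringTie, and deposited an estimated count per transcript and library as whole numbers. Program versions and the annotation used were not given in the sources used here. A second deposited table of the same libraries was not used. Transcripts were summed to genes by identifier with GENCODE M21 (GRCm38): 141374 of 142604 were paired, and the other 1230, with 0.375% to 0.872% of counts, were tested under their own identifiers.

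Counts were fitted in edgeR 4.0.16, run under R 4.3.3 (minimum count of 10 in filterByExpr, TMM, robust quasi-likelihood fit of all 6 libraries, Benjamini-Hochberg adjustment over 15467 genes, threshold 0.05, 2-fold as a log2 fold change of at least 1). TPM were computed from the estimated counts and GENCODE exon lengths. Alternatives were RLE factors, library totals, other filters, DESeq2 1.42.0, a replicate block, fits without mitochondrial genes, fits of 4 libraries, leaving out each library and, chosen after seeing the data, a fit without robust estimates. The nearest genes were the 3 at the smallest distance. Genes named from a list were drawn from up to 4 with the smallest adjusted p and from those against its main direction, not all of which are named. Dmd, Bves, Ehd1 and the marker genes singled out were named after their values were seen. Genes and lists were chosen with earlier results of these data known. Promoter windows are from RefSeq, with none used for Cavin3.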

Additional observations from a re-analysis of the deposited data

Results flagged for a closer look

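The direction of Cav1 from myoblasts was opposite in the day 7 populations: it fell in myotubes (log2 fold change -2.33) and was higher in reserve cells (0.24). The latter value no longer passed without myoblast replicate 2 (0.21), without reserve cell replicate 2 (0.22) or with library totals (0.17), though its direction held. The difference itself, myotubes over reserve cells, was -2.57 (SE 0.0786, adjusted p = 1.5e-11 by edgeR). Both myotube libraries were lower than both reserve cell libraries.

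Cavin2 likewise fell in myotubes (-0.38), and in reserve cells its value was 0.19, which did not pass. The difference was -0.57 (SE 0.0976, adjusted p = 0.000223 by edgeR), and both reserve cell libraries were higher than both myotube libraries. Both genes were singled out because the change from the shared myoblast libraries had opposite signs.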

How the results depend on the processing

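The log2 fold changes of the 8 genes in the 3 comparisons gave 24 results, each recomputed under 15 alternatives. Of these 360 values, 352 kept their direction and their side of the threshold, 6 no longer passed and 2 newly passed, and none changed direction. The changes touched 5 results, Cav1, Cav2 and Cavin2 between reserve cells and myoblasts, Cavin2 between myotubes and myoblasts and Cavin1 between myotubes and reserve cells, whose values are given above. The cause was not tested. Leaving out a library gave 7 to 8 genes called in myotubes against myoblasts, 5 to 7 in reserve cells against myoblasts and 7 in myotubes against reserve cells.

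When depth alone set the scale (library totals, no TMM), the median of all genes moved to -0.27, -0.06 and -0.21 in the comparisons of myotubes with myoblasts, reserve cells with myoblasts and myotubes with reserve cells, and the percentage of called genes that were higher moved from 49.9% to 36.5%, from 52.5% to 45.4% and from 48.9% to 34.3%. In CPM in place of TPM the mean share of Cav3 among caveolins was 88.8% in myotubes and 25.1% in reserve cells, and that of Cavin4 among cavins was 2.98% in myoblasts, 60.2% in myotubes and, for reserve cells, 28.4%, a change that follows from leaving out transcript length.

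With the replicate number as a block, 8, 7 and 7 of the 8 genes were called in the same 3 comparisons, and 10013, 7201 and 8549 of all genes, against 10137, 7291 and 8739. Same-numbered libraries did not deviate together, with correlations of 0.00 between myoblasts and myotubes, 0.04 between myoblasts and reserve cells and -0.03 between myotubes and reserve cells. No pairing by number was therefore seen. With 2 libraries a group, this cannot show whether same-numbered libraries came from the same dishes. Depth limits mainly Cav3 in myoblasts, at 6 counts, and Cav2 in myotubes, at 73 and 91 counts.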
